A study of Mus musculus with 9 samples.

Results

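The circadian clock genes Arntl, Clock, Npas2, Per1, Per2, Per3, Nr1d1, Nr1d2, Dbp and Tef were followed in RNA of mouse ovary. They are 10 of the 22544 rows of the deposited expression table and were found by gene symbol, and each symbol had 1 row. The table covers 9 libraries in 3 groups of 3. In the HBOT group, CTX was combined with HBOT (hyperbaric oxygen therapy), per the series' design text and title. The CTX group had CTX alone, a common abbreviation of cyclophosphamide, an alkylating drug that injures ovarian follicles; the labels do not spell it out. The NC group, whose label names neither treatment, was the control. The labels give no strain, age, dose, schedule or time of day at which tissue was taken, and nothing in them ties each replicate to its own animal. P-values therefore measure only the spread between these samples, which may be technical.

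The clock is a loop of transcription factors that runs in most cells, including granulosa, theca and luteal cells of the ovary. ARNTL (BMAL1) pairs with CLOCK or NPAS2 and activates genes with an E-box, among them the Per and Nr1d genes and Dbp. The PER proteins, with the cryptochromes, inhibit that pair, and the REV-ERB receptors encoded by Nr1d1 and Nr1d2 repress Arntl and Npas2. DBP and TEF carry the rhythm outward by activating genes with a D-box, and in tissues such as mouse liver Dbp and Nr1d1 peak at another time of day than Arntl.

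Expression was given as FPKM (fragments scaled to transcript length and to the fragments of the library), which allows levels to be compared between genes. Such values carry no read counts, so depth is unknown. Each fold change comes from a limma fit to log2(FPKM + 1) in all 9 libraries, a scale that understates the change of low genes. All 10 clock genes were among the 13338 genes tested, those with at least 1 FPKM in at least 3 libraries. Npas2 reached 1 FPKM in 4 libraries, 3 of them NC, and so could pass through the group in which it was high. In whole ovary, fewer cells of a type and less RNA per cell cannot be told apart. HBOT replicate 2 stood apart, with 1637 genes over 1 log2 unit away from the average of the rest, where each other library had 173 to 347 such genes. Fold changes of the 10 clock genes that use it are therefore given with and without it.

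RefSeq promoter windows (GRCm38.p6, 250 bases before to 50 after a transcription start) were matched by symbol for 9 of the 10 genes, in 14 windows; Per2 had no entry. By the RefSeq gene table the genes lie on chromosomes 1 (Npas2 and Per2), 4 (Per3), 5 (Clock), 7 (Arntl and Dbp), 11 (Per1 and Nr1d1), 14 (Nr1d2) and 15 (Tef). The windows were searched on both strands for the E-box CACGTG, the D-box TTANGTAA, the REV-ERB and ROR element TAGGTCA and the cAMP response element TGACGTCA. The first window per gene with a match is shown because these are the letters through which clock factors act on each other, with the match in capitals and the bases before the start in each but Arntl. The CACGTG of Per1 begins 166 bases before the start and that of Tef 127 bases before it, and a second Tef start has another at 138 bases. Per3 has the D-box letters at 205 and at 158 bases before its start. For Arntl, 30 bases around the match are shown, which begins at base 31 after the start.
Per1, chr11:69098699-69098948, plus strand: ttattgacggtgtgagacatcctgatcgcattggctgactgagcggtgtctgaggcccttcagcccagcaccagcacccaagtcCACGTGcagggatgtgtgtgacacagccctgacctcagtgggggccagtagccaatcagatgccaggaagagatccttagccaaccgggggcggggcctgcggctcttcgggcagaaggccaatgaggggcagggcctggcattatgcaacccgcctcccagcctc
Tef, chr15:81802423-81802672, plus strand: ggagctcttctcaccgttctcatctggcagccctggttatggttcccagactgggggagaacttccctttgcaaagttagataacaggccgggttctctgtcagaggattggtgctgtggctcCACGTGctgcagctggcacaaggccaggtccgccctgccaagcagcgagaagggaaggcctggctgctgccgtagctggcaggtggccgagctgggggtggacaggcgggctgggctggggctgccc
Per3, chr4:151044666-151044915, minus strand: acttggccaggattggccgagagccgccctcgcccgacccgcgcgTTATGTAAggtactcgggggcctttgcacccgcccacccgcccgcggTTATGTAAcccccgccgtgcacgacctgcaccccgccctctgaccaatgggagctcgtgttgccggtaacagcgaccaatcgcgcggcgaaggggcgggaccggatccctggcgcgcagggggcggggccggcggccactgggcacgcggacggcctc
Arntl, chr7:113207530-113207559, plus strand: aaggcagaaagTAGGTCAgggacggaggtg

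Of 32851 such windows of all genes, 7.15% hold the E-box letters, 2.32% the D-box letters, 2.61% TAGGTCA and 1.79% the cAMP response element. The last was in 0 of the 14 clock gene windows. A match is a description of the letters and says nothing of binding. The files were made on GRCm39, so these coordinates apply to the RefSeq table only.

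Over all 9 libraries the output factors and REV-ERB genes were the most abundant clock transcripts. Dbp averaged 44.4 FPKM, Tef 36.4, Nr1d1 34.7 and Nr1d2 23.3. Per1 averaged 17.8 FPKM, Per3 8.99, Clock 7.77, Arntl 6.32 and Per2 5.31, and Npas2 was lowest at 1.33. The widest span between the highest and the lowest library was 36.8-fold for Dbp and 14.3-fold for Nr1d1, and the narrowest was 1.41-fold for Clock.

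**Figure D1:**
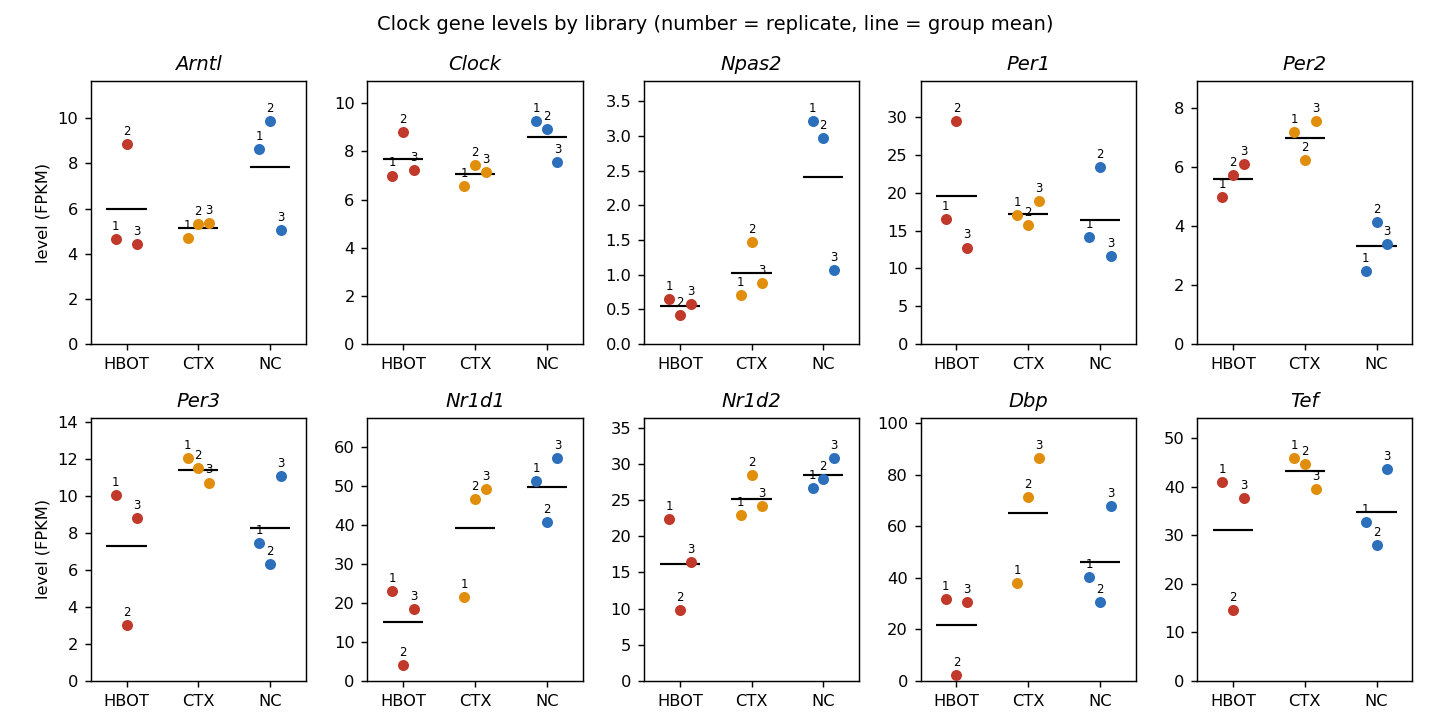
Levels of the 10 clock genes in FPKM (y axis, starting at 0 in each panel) in the 3 HBOT, 3 CTX and 3 NC libraries; points are libraries, numbers are replicates and lines are group means. Per2 lies lower in the NC libraries (2.48 to 4.13 FPKM) than in the others, and HBOT replicate 2 is the lowest library for Dbp (2.36 FPKM), Nr1d1, Nr1d2, Per3, Tef and Npas2.

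The activators stood lower in CTX than in NC, to a large part through NC replicates 1 and 2. Arntl (ENSMUSG00000055116) was at 4.67, 8.87 and 4.44 FPKM in HBOT, at 4.68, 5.33 and 5.37 in CTX and at 8.62, 9.86 and 5.05 in NC. NC replicates 1 and 2 and HBOT replicate 2 were high, and the third NC library lay among the CTX libraries, so the groups overlap. The log2 fold change of Arntl was -0.49 in CTX against NC (SE 0.28, limma adjusted p = 0.734), 0.14 in HBOT against CTX and -0.35 in HBOT against NC. With HBOT replicate 2 left out, HBOT against CTX was -0.14 and HBOT against NC -0.63 (SE 0.23 each), so the difference from CTX turned sign. The CTX against NC value was -0.32 without NC replicate 2 and -0.74 without NC replicate 3.

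Npas2 (ENSMUSG00000026077), the paralog that can take the place of CLOCK, was at 0.651, 0.421 and 0.578 FPKM in HBOT, at 0.702, 1.48 and 0.876 in CTX and at 3.21, 2.97 and 1.07 in NC. All HBOT libraries lay below all CTX and all NC libraries, while CTX and NC overlap through NC replicate 3. Npas2 had a log2 fold change of -1.07 in HBOT against NC (SE 0.28, 95% interval -1.71 to -0.44, limma adjusted p = 0.283), and -1.01 without HBOT replicate 2. In CTX against NC it was -0.71 (SE 0.28, limma adjusted p = 0.590) and in HBOT against CTX -0.37 (SE 0.28), or -0.30 without HBOT replicate 2. Since its HBOT levels are under 1 FPKM, these values depend on the added 1. With 0.1 added instead, they were -1.83 in HBOT against NC, -1.09 in CTX against NC and -0.74 in HBOT against CTX.

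Clock (ENSMUSG00000029238) varied least. It was at 6.996, 8.81 and 7.23 FPKM in HBOT, at 6.57, 7.45 and 7.16 in CTX and at 9.25, 8.94 and 7.55 in NC. All CTX libraries lay below all NC libraries, by a narrow margin between CTX replicate 2 and NC replicate 3. Clock had a log2 fold change of -0.25 in CTX against NC (SE 0.13, limma adjusted p = 0.706), 0.10 in HBOT against CTX and -0.14 in HBOT against NC. With HBOT replicate 2 left out, HBOT against CTX was 0.011 and HBOT against NC -0.24.

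Among the period genes, Per2 (ENSMUSG00000055866) separated both treated groups from NC. It was at 5.002, 5.73 and 6.11 FPKM in HBOT, at 7.20, 6.23 and 7.56 in CTX and at 2.48, 4.13 and 3.39 in NC. The 3 groups do not overlap, with NC lowest and CTX highest. Group means were 5.61 ± 0.563 FPKM in HBOT, 6.997 ± 0.688 in CTX and 3.33 ± 0.829 in NC (SD, n = 3 each). The log2 fold change in CTX against NC was 0.90 (SE 0.17, 95% interval 0.52 to 1.27), rank 27 of all tested genes by p. It did not pass the threshold over all genes (limma adjusted p = 0.221). In HBOT against NC it was 0.63 (SE 0.17, limma adjusted p = 0.283), and in HBOT against CTX -0.27 (SE 0.17, limma adjusted p = 0.710). The same 3 values were 0.90, 0.61 and -0.29 without HBOT replicate 2. With each library left out in turn, the CTX against NC value ran from 0.75 to 1.03.

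Per1 (ENSMUSG00000020893), an acutely inducible member of the family, was at 16.6, 29.4 and 12.8 FPKM in HBOT, at 17.1, 15.7 and 18.9 in CTX and at 14.2, 23.4 and 11.7 in NC. HBOT replicate 2 was the highest library and NC replicate 2 the next, and every pair of groups overlaps. Its log2 fold changes were 0.12 in CTX against NC, 0.10 in HBOT against CTX and 0.22 in HBOT against NC (SE 0.31 each). The last 2 were -0.23 and -0.10 without HBOT replicate 2, and the first was -0.08 without NC replicate 3.

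Per3 (ENSMUSG00000028957) was at 10.04, 3.04 and 8.79 FPKM in HBOT, at 12.0, 11.5 and 10.7 in CTX and at 7.45, 6.31 and 11.04 in NC. HBOT replicate 2 was the lowest library by a wide margin, and the CTX libraries were above the HBOT libraries. NC replicate 3 lay within the CTX range. For Per3 the log2 fold change was 0.45 in CTX against NC (SE 0.36, limma adjusted p = 0.849), -0.71 in HBOT against CTX (SE 0.36, limma adjusted p = 0.710) and -0.26 in HBOT against NC. The last 2 were -0.25 and 0.20 without HBOT replicate 2. The CTX against NC value was 0.30 without NC replicate 2. Camta1, which overlaps Per3 on the same strand, was lowest in HBOT replicate 2 (8.46 FPKM) and highest in CTX replicate 1 (14.96 FPKM), as Per3 was, and its part in the Per3 values was not tested.

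The REV-ERB genes stood lowest in HBOT, in all 3 of its libraries when set against NC. Nr1d1 (ENSMUSG00000020889) was at 23.1, 3.996 and 18.4 FPKM in HBOT, at 21.5, 46.5 and 49.2 in CTX and at 51.2, 40.8 and 57.1 in NC. CTX replicate 1 lay among the HBOT libraries, and the HBOT and NC libraries do not overlap. Means were 15.2 ± 9.97 FPKM in HBOT, 39.0 ± 15.3 in CTX and 49.7 ± 8.26 in NC (SD, n = 3 each). The log2 fold change was -1.92 in HBOT against NC (SE 0.56, limma adjusted p = 0.318) and -1.21 without HBOT replicate 2 (SE 0.33, limma adjusted p = 0.265). In HBOT against CTX it was -1.50 (SE 0.56, limma adjusted p = 0.710) and -0.80 without that library. In CTX against NC it was -0.42 (SE 0.56) and -0.04 without CTX replicate 1. Thra, which lies over Nr1d1 on the opposite strand in the GENCODE M21 annotation, was at 19.3 FPKM in HBOT replicate 2, also its lowest library, and at 41.5 to 59.8 FPKM in the others, and the sources used here do not say whether counting used strand.

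Nr1d2 (ENSMUSG00000021775) followed at a smaller scale, at 22.4, 9.76 and 16.4 FPKM in HBOT, at 22.9, 28.5 and 24.1 in CTX and at 26.6, 27.9 and 30.8 in NC. All HBOT libraries lay below all CTX and all NC libraries, although HBOT replicate 1 was close to CTX replicate 1. Nr1d2 had a log2 fold change of -0.84 in HBOT against NC (SE 0.25, limma adjusted p = 0.321) and -0.67 in HBOT against CTX (SE 0.25, limma adjusted p = 0.710). They were -0.54 and -0.37 without HBOT replicate 2. In CTX against NC it was -0.17 (SE 0.25).

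Among the output factors, Dbp (ENSMUSG00000059824) varied most. It was at 31.8, 2.36 and 30.7 FPKM in HBOT, at 38.2, 71.2 and 86.6 in CTX and at 40.5, 30.7 and 67.8 in NC. HBOT replicate 2 was far below every other library, and the HBOT libraries lay below the CTX libraries. Replicates 1 and 3 of HBOT were at about the level of NC replicate 2. The log2 fold change was -2.05 in HBOT against CTX (SE 0.81, limma adjusted p = 0.710) and -0.96 without HBOT replicate 2 (SE 0.39, limma adjusted p = 0.933). In HBOT against NC it was -1.57 (SE 0.81) and -0.48 without that library. In CTX against NC it was 0.48 (SE 0.81, 95% interval -1.36 to 2.33). Leaving out 1 library moved the CTX against NC value between 0.23 (without NC replicate 2) and 0.83 (without CTX replicate 1), with 0.24 without CTX replicate 3 and 0.79 without NC replicate 3. Sphk2, on the opposite strand over Dbp, was likewise lowest in HBOT replicate 2, at 9.77 FPKM against 16.0 to 19.1 in the others, and its part in the Dbp values was not tested.

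Tef (ENSMUSG00000022389) was at 40.9, 14.6 and 37.7 FPKM in HBOT, at 45.9, 44.6 and 39.5 in CTX and at 32.7, 28.03 and 43.6 in NC. HBOT replicate 2 was again far below the rest, and every pair of groups overlaps. For Tef the log2 fold change was 0.33 in CTX against NC (SE 0.35; 0.19 without NC replicate 2 and 0.50 without NC replicate 3), -0.59 in HBOT against CTX and -0.26 in HBOT against NC. With HBOT replicate 2 left out, the last 2 were -0.14 and 0.19.

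Read together by comparison, 0 of the 10 clock genes passed an adjusted p of 0.05 in any comparison by limma, nor did any of the 13338 tested genes (0% in each). In CTX against NC, 2 clock genes had an unadjusted p under 0.05, Per2 above and Npas2 below NC, against 7.98% of all tested genes (5.24% higher and 2.74% lower in CTX). Npas2 entered the tested genes through NC, where it is high, and so does not count as support here. The groups did not overlap for Per2 (higher in CTX) and Clock (lower), 2 of 10, against 21% of all tested genes (13.2% higher and 7.8% lower). Without HBOT replicate 2, whose spread enters every p-value of the joint fit, 5 had an unadjusted p under 0.05 in this comparison, against 15.8% of all genes, and 0 passed after adjustment, against 0.06%. The 5 were Per2 and Per3 above NC and Arntl, Clock and Npas2 below it, where Npas2 again does not count as support. The median log2 fold change of the 10 genes was -0.03, against 0.05 over all tested genes.

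In HBOT against CTX, 3 clock genes had an unadjusted p under 0.05, all lower in HBOT (Nr1d1, Nr1d2 and Dbp), against 6.09% of all tested genes (2.41% higher and 3.67% lower in HBOT). The groups did not overlap for 5 of 10, all lower in HBOT (Npas2, Per2, Per3, Nr1d2 and Dbp), against 10.2% of all tested genes (3.76% higher and 6.44% lower). Npas2 does not count as support here either. It entered the tested genes through NC and lay under 1 FPKM in all HBOT libraries, by a narrow margin (0.651 FPKM in HBOT replicate 1, 0.702 in CTX replicate 1). The median log2 fold change was -0.48, against -0.07 over all tested genes. Without HBOT replicate 2 the median was -0.27 against -0.0030, and the 3 named genes again had an unadjusted p under 0.05, where 5.22% of all genes did in either direction.

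In HBOT against NC, 4 clock genes had an unadjusted p under 0.05, against 11.9% of all tested genes (6.22% higher and 5.65% lower in HBOT). Per2 was above NC, and Npas2, Nr1d1 and Nr1d2 were below it. Npas2 again does not count as support. The same 4 had groups that did not overlap, against 20.5% of all tested genes (10.9% higher and 9.6% lower). The median log2 fold change was -0.31, against -0.01 over all tested genes. Leaving out HBOT replicate 2 gave -0.36, against 0.04, with 5 clock genes at an unadjusted p under 0.05, against 13.2% of all genes. These were the same 4, among them Npas2 with the same limit, and Arntl, below NC. The 3 comparisons share libraries pairwise, so their values are not independent of each other.

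**Figure D2:**
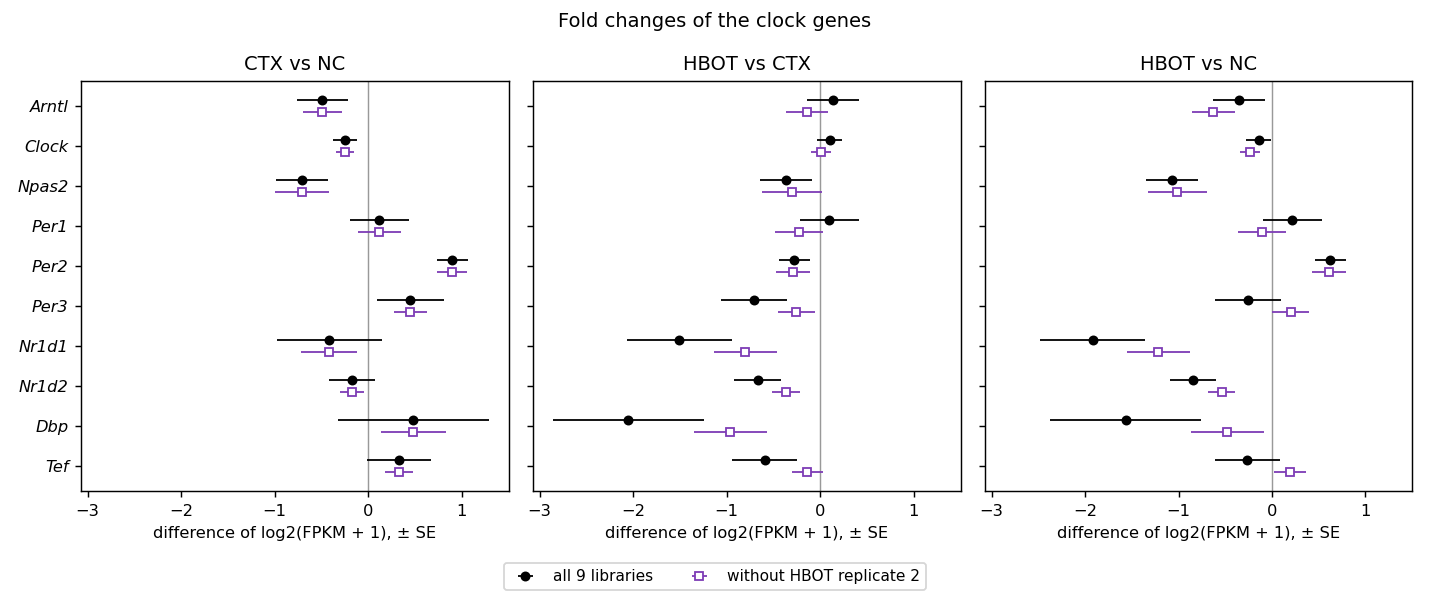
Difference of log2(FPKM + 1) for each clock gene (x axis, bars are the limma standard error) for HBOT against CTX, HBOT against NC and CTX against NC, over all 9 libraries (filled) and without HBOT replicate 2 (open). The HBOT values of Dbp and Nr1d1 shrink without that library, Dbp from -2.05 to -0.96 in HBOT against CTX, while Per2 and Npas2 move little.

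HBOT replicate 2 carried the extreme value of 7 clock genes. It was the lowest of the 9 libraries for 6 of them and the highest for Per1, where it was lowest for 44.1% and highest for 19.5% of all tested genes. The ratio of Dbp to Arntl in FPKM was 6.83, 0.266 and 6.91 in the HBOT libraries, 8.16, 13.4 and 16.1 in the CTX libraries and 4.70, 3.12 and 13.4 in the NC libraries. HBOT replicate 2 is the only library in which Dbp lay below Arntl. NC replicate 3 stood nearer to CTX replicates 2 and 3 than to the other NC libraries by this ratio.

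Libraries of the same group differed more for several clock genes than for most genes. The SD of Dbp around its group means was 1.19 log2 units, above that of 99.2% of all tested genes and of 99.5% of the 1051 genes within 0.25 log2 units of its level. For Nr1d1 it was 0.816 (97.3% of all genes), for Per3 0.507 (90.4%) and for Tef 0.497 (89.8%). Per1 followed at 0.447 (86.8%), Arntl at 0.382 (81.0%), Npas2 at 0.373 (79.9%) and Nr1d2 at 0.345 (76.0%). Per2 at 0.193 (39.7%) and Clock at 0.131 (18.6%) varied less than most genes.

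The order was partly kept without HBOT replicate 2, which was left out after its values were seen. Dbp was then at 0.525 log2 units, above 95.2% of all tested genes, Nr1d1 at 0.449 (93.2%), Npas2 at 0.403 (91.4%) and Per1 at 0.339 (87.3%). Tef at 0.214 (68.6%) and Nr1d2 at 0.180 (59.5%) came nearer to the middle of all genes, whose median SD was 0.155, against 0.227 with all libraries. Per2, below most genes with all libraries, was then at 0.211 and above 67.8% of all tested genes. These percentiles describe these libraries and carry no test. The time of day at which each ovary was taken is not in the labels, and its part in this spread was not tested.

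**Figure D3:**
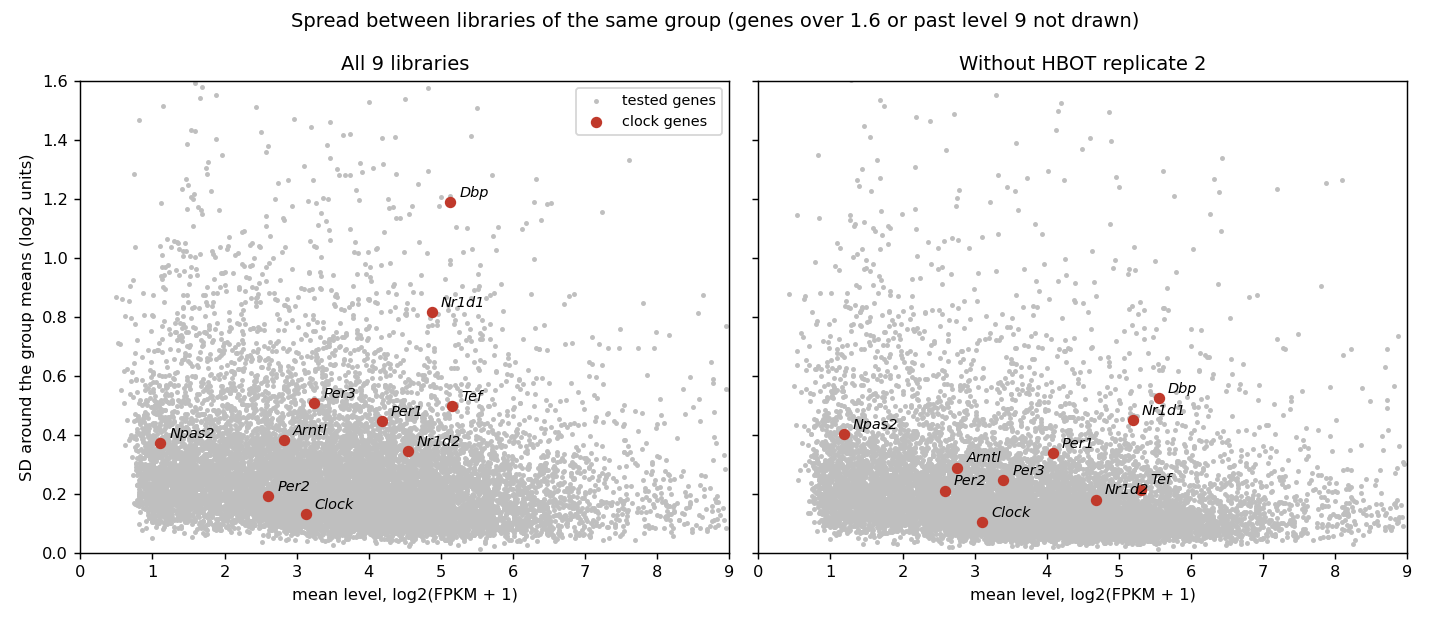
SD around the group means (y axis, log2 units) against mean level (x axis, log2(FPKM + 1)) for all tested genes (grey) and the clock genes (red), with all 9 libraries (left) and without HBOT replicate 2 (right). Dbp (1.19) and Nr1d1 (0.816) lie in the upper part of the cloud at left and Clock (0.131) in its lower part.

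All 45 pairs of clock genes were correlated over the 9 libraries, with exact permutation p-values adjusted over the 45 pairs. The tightest pair was Per3 and Tef, with Pearson's r = 0.993 (exact permutation p = 1.38e-05, adjusted 0.000620) and Spearman's rho = 0.983 (exact permutation p = 4.96e-05, adjusted 0.00223). The value stayed at 0.967 without the 2 farthest libraries, HBOT replicate 2 and NC replicate 2, at 0.984 without HBOT replicate 2 alone (adjusted exact permutation p = 0.00558) and at 0.996 for deviations from the group means. Thus a library high in Tef was high in Per3 in every group. Of the 14 clock gene windows searched, only the Per3 window shown above holds the D-box letters TTANGTAA, at 2 places. TEF and DBP are known to bind such letters. Per2 had no window, and other spellings of the D-box were not searched. Whether TEF acts on the Per3 letters here was not tested.

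The REV-ERB genes formed the next pair, Nr1d1 and Nr1d2 with r = 0.958 (exact permutation p = 0.000256, adjusted 0.00577) and rho = 0.850 (exact permutation p = 0.00607, adjusted 0.124). Without HBOT replicates 2 and 3, the farthest, r was 0.797, without HBOT replicate 2 it was 0.848 (adjusted exact permutation p = 0.0265), and for deviations from the group means without that library 0.554. Nr1d1 and Dbp had r = 0.925 (exact permutation p = 0.00307, adjusted 0.0345) and rho = 0.800 (exact permutation p = 0.0138, adjusted 0.155). This relation no longer passed without HBOT replicate 2 (r = 0.690, adjusted exact permutation p = 0.179), and without the 2 farthest libraries r was 0.623. Its adjusted p thus depended on that library. For deviations from the group means without HBOT replicate 2, however, r of Nr1d1 and Dbp was 0.882, above the 0.554 of Nr1d1 and Nr1d2. Their rho without that library was 0.714.

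Arntl and Clock had r = 0.942 (exact permutation p = 0.00281, adjusted 0.0345) and rho = 0.733 (exact permutation p = 0.0311, adjusted 0.233), and r = 0.925 without the 2 farthest libraries, HBOT replicate 2 and NC replicate 2. Without HBOT replicate 2 alone r was 0.931 but no longer passed (adjusted exact permutation p = 0.0859). Their rho was then 0.667 (adjusted exact permutation p = 0.397). However, Arntl fell into separate clusters, with HBOT replicate 2 and NC replicates 1 and 2 at 8.62 FPKM or more and the other 6 libraries at 4.44 to 5.37. Within those 6 libraries, taken by their Arntl level after it was seen, r was 0.470, where the range of Arntl is narrow by choice. Npas2 joined Arntl only when HBOT replicate 2 was left out. Over all 9 libraries the r of Arntl and Npas2 was 0.605 (adjusted exact permutation p = 0.143), with rho = 0.450 (adjusted exact permutation p = 0.517). Without HBOT replicate 2 their r was 0.960 (adjusted exact permutation p = 0.0265), while rho = 0.905 did not pass (adjusted exact permutation p = 0.103). Within the 6 libraries r was 0.820. In HBOT replicate 2, Arntl was high (8.87 FPKM) while Npas2 was at its lowest (0.421 FPKM).

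The relation of the activator Arntl to the output factor Dbp differed between sets of libraries. Their r was -0.491 over all libraries (rho = -0.02, exact permutation p = 0.176 and 0.982, adjusted 0.284 and 1) and 0.110 without the 2 farthest. Within the 6 libraries of low Arntl it was 0.967 (rho = 1), which is a description of libraries picked by Arntl itself, and both genes were lowest in HBOT replicate 3 and highest in CTX replicate 3. Of the 45 pairs, 4 passed an adjusted p of 0.05 by Pearson's r, 1 by Spearman's rho, 4 by Pearson's r without HBOT replicate 2, and 2 in both sets of libraries (Per3 with Tef, Nr1d1 with Nr1d2). With median-of-ratios scaling 12 passed by Pearson's r, and 20 did for deviations from the group means. The 20 cannot be set beside the 4, since the deviations were permuted over all libraries although centring ties the values of a group. Such p-values tend to be too small. The sign of r changed for 14 pairs when HBOT replicate 2 was left out.

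**Figure D4:**
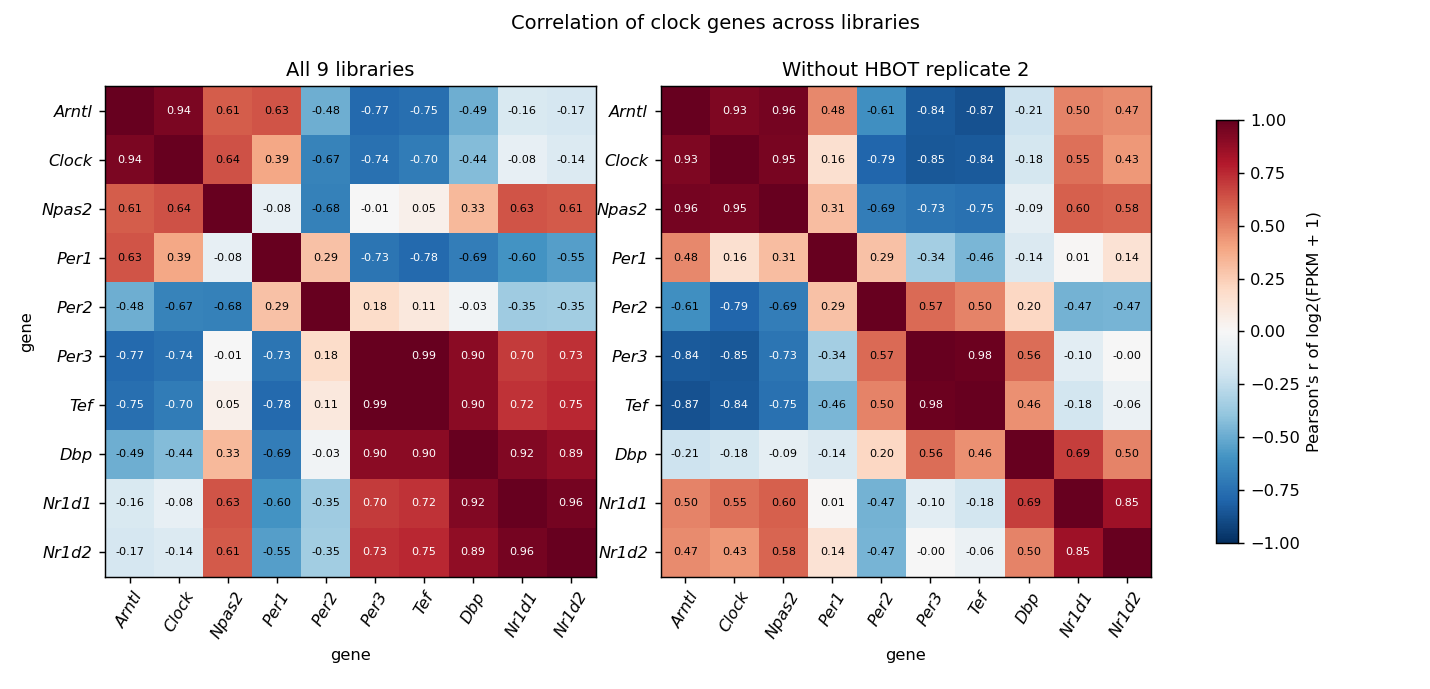
Pearson's r of log2(FPKM + 1) between clock genes (rows and columns) over all 9 libraries (left) and without HBOT replicate 2 (right), from -1 (blue) to 1 (red). Per3 and Tef stay at 0.99 and 0.98, while the values of Dbp with Tef and of Nr1d1 with Per3 drop at right.

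**Figure D5:**
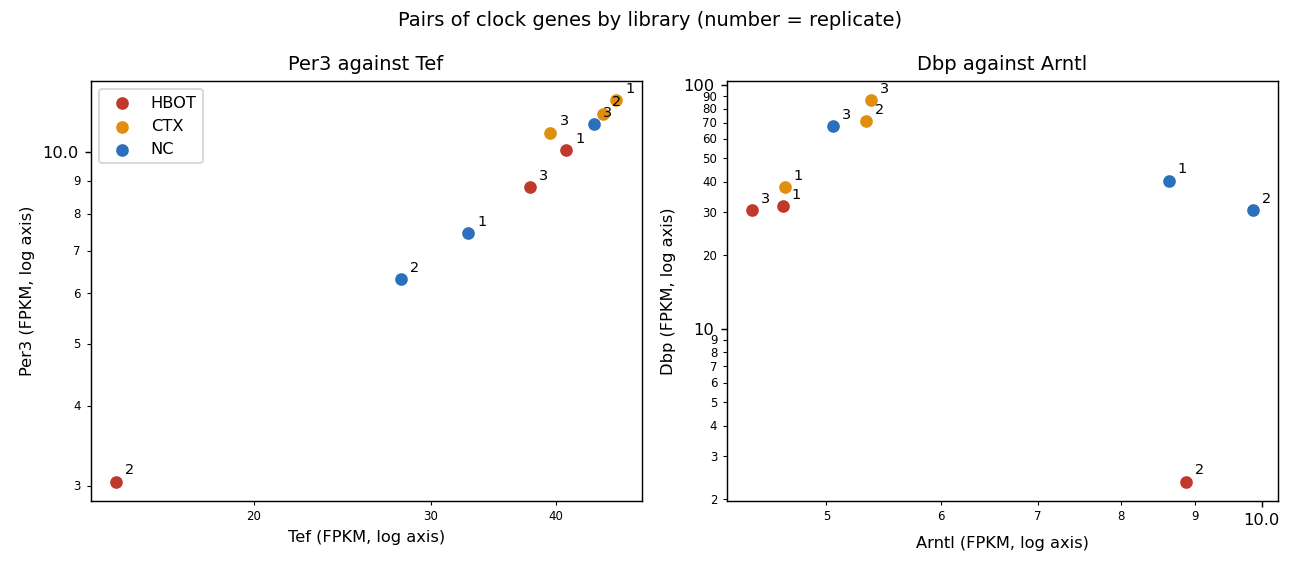
Per3 against Tef (left) and Dbp against Arntl (right) in FPKM on log axes, by library, coloured by group and numbered by replicate. The Per3 and Tef points lie along a line from HBOT replicate 2 (3.04 and 14.6 FPKM) to CTX replicate 1 (12.0 and 45.9 FPKM), and the Dbp and Arntl points fall into separate clusters.

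Among 11902 other genes with a mean of at least 2 FPKM, those whose level followed Arntl most closely over the 9 libraries included Rnf11 (r = 0.957, rho = 0.883), the kinase gene Slk (r = 0.946), the galactosylceramidase gene Galc (r = 0.938) and Uck2 (r = 0.926). Without HBOT replicate 2 the 5 were Dbt (r = 0.979), Dars (r = 0.968), Lypla1 (r = 0.967), Ccni (r = 0.965) and Itpr1 (r = 0.961). For Dbp they were Pdzd11 (r = 0.980), the malonyl-CoA decarboxylase gene Mlycd (r = 0.979), Sh3d21 (r = 0.978), Arl6ip1 (r = 0.977) and Dynlt2b (r = 0.9753). Without HBOT replicate 2 these were Atxn7l2 (r = 0.933), Kptn (r = 0.923), Stx8 (r = 0.908), Ppp1r13b (r = 0.902) and Chchd1 (r = 0.896). None of the 5 was shared between the sets with and without that library. These values describe 9 or 8 libraries and were picked as the highest of many.

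Of 32 other genes of the clock and its known outputs, 30 were tested, and 0 passed an adjusted p of 0.05 in any comparison by limma. At an unadjusted p under 0.05 there were 2 in CTX against NC, 3 in HBOT against CTX and 4 in HBOT against NC, against 7.98%, 6.09% and 11.9% of all tested genes. Fbxl21 is among the 4 in HBOT against NC. It reached 1 FPKM only in CTX and NC libraries and so does not count as support. In CTX against NC 19 were higher and 11 lower, with a median log2 fold change of 0.09 against 0.05 over all tested genes, of which 7930 were higher and 5408 lower. In HBOT against CTX 16 were higher and 14 lower, with a median of 0.0067 against -0.07 over all tested genes (5124 higher, 8214 lower). In HBOT against NC 17 were higher and 13 lower, with a median of 0.03 against -0.01 (6348 higher, 6990 lower). Leaving out HBOT replicate 2 gave 13 higher and 17 lower in HBOT against CTX and 17 and 13 in HBOT against NC, with 2 and 5 at an unadjusted p under 0.05, and 6 in CTX against NC. By role, 9 of 11 core clock and output genes were tested (6 higher and 3 lower in CTX than in NC, 4 and 5 in HBOT against CTX, 5 and 4 in HBOT against NC). Of 13 modifiers of clock proteins 6 were higher and 7 lower in CTX than in NC, 7 and 6 in each of the other comparisons. Of 8 rhythmic outputs shared by many tissues 7 were higher and 1 lower in CTX than in NC, 5 and 3 in each of the other comparisons. With HBOT replicate 2 left out, the rhythmic outputs were 3 higher and 5 lower in HBOT against CTX, so the majority turned, and 6 and 2 in HBOT against NC. The modifiers were then 5 higher and 8 lower in HBOT against NC and 7 and 6 in HBOT against CTX, and the core genes 6 and 3 in HBOT against NC and 3 and 6 in HBOT against CTX.

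Bhlhe40 (DEC1), a repressor that competes for the E-box, was at 17.4, 51.3 and 46.4 FPKM in HBOT, at 14.8, 19.8 and 14.9 in CTX and at 40.4, 55.5 and 38.7 in NC. The CTX libraries lay below the NC libraries (log2 fold change -1.38, SE 0.36, limma adjusted p = 0.360), and HBOT replicate 1 lay among the CTX libraries. Usp2, a deubiquitinase with rhythmic expression in many tissues, was at 4.02, 3.68 and 3.44 FPKM in HBOT, at 4.82, 3.39 and 2.54 in CTX and at 2.23, 1.95 and 1.95 in NC. Its log2 fold change was 0.56 in CTX against NC (limma adjusted p = 0.474) and 0.63 in HBOT against NC (limma adjusted p = 0.318; 0.64 without HBOT replicate 2), with NC below both treated groups in every library. Rora, an activator at the elements that REV-ERB represses, was at 3.32, 1.96 and 3.80 FPKM in HBOT, at 2.62, 9.06 and 8.14 in CTX and at 8.83, 11.7 and 5.65 in NC. HBOT lay below NC (-1.25, SE 0.41, limma adjusted p = 0.338; -1.04 without HBOT replicate 2), and CTX replicate 1 lay among the HBOT libraries, as for Nr1d1.

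Cry1, a cryptochrome that inhibits the activator pair, was at 8.77, 14.9 and 7.22 FPKM in HBOT, at 7.44, 6.08 and 7.52 in CTX and at 5.98, 6.07 and 4.89 in NC. Its log2 fold change in HBOT against NC was 0.71 (limma adjusted p = 0.337), and 0.44 without HBOT replicate 2. The CTX libraries also lay above the NC libraries, by a narrow margin (0.27, limma adjusted p = 0.866). HBOT and CTX overlap for Cry1 (0.44, and 0.17 without HBOT replicate 2). Of the 30 other clock genes tested, 5 had groups without overlap in CTX against NC, 4 in HBOT against CTX and 5 in HBOT against NC. The shares over all tested genes were 21%, 10.2% and 20.5%, so the genes named here do not set the lists apart. Smaller differences with groups that did not overlap were found in CTX against NC for Fbxw11 (-0.25), an F-box protein that acts on PER, and for Bhlhe41 (0.27), a relative of Bhlhe40. In HBOT against CTX they were found for Tspan4 (-0.54), Fbxw11 (0.27), Fbxl21 (-0.52) and Bhlhe41 (-0.24), and in HBOT against NC for the casein kinase Csnk1d (0.23). The same 5 values without HBOT replicate 2 were -0.47, 0.18, -0.48, -0.20 and 0.14. With all libraries, all of these had a limma adjusted p of at least 0.433. Fbxl21 was at 0.377 to 0.553 FPKM in HBOT and at 0.566 FPKM in CTX replicate 1, a narrow margin at a low level. It reached 1 FPKM in 4 libraries, all of them CTX or NC. It could thus pass through groups in which it was high and does not count as support. Further genes, named after their values were seen, marked HBOT replicate 2. Nfil3, a repressor at the D-box, was at 72.7 FPKM there against 5.81 to 11.1 elsewhere. Cry2 was at 32.4 against 11.5 to 15.2 FPKM, and Por, the reductase that supplies cytochrome P450 enzymes, at 194.9 against 31.2 to 41.8 FPKM.

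Gene sets of ovarian state and cell type were summed per library, and each of these sets had 0 genes at 0 in all libraries. The 12 ovulatory response genes, of which Rgcc and Cebpb have the highest mean, summed to 1211 FPKM in HBOT replicate 2, against 100.4 and 160.0 in the other HBOT libraries, 114.0 to 159.0 in CTX and 210.0 to 218.1 in NC. Most of that sum came from Ereg (360.7 FPKM), Tnfaip6 (188.3) and Areg (145.1), named after their values were seen, while Rgcc was at 93.4 FPKM there, below all NC libraries. The 14 immediate early genes, led by Nr4a1 and Dusp1, summed to 200.5, 1085 and 129.5 FPKM in HBOT, 117.6 to 170.5 in CTX and 557.9, 336.9 and 174.8 in NC. Their sum was thus highest in the same 3 libraries as Arntl, which did not hold for each of the 14 genes. Dusp1 was at 31.4 FPKM in HBOT replicate 2, below CTX replicate 2 (54.8 FPKM), and Jun was highest in NC replicate 3 (40.5 FPKM). The 8 glucocorticoid targets, led by Fkbp5 and Mt2, summed to 405.2 to 568.8 FPKM in HBOT, 303.8 to 580.7 in CTX and 534.6 to 791.9 in NC. The part of these genes in the clock gene values was not tested.

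Among cell type markers, the 10 oocyte genes led by Padi6 and Gdf9 summed to 373.1 to 426.2 FPKM in HBOT, 260.8 to 403.1 in CTX and 169.4 to 241.0 in NC. The granulosa genes (led by Inha and Amh) were at 1817 to 2322, 1512 to 2529 and 1410 to 2061 FPKM in HBOT, CTX and NC, the theca genes (Cyp11a1 and Star) at 2891 to 4524, 2177 to 5082 and 3560 to 5012, and the luteal genes (Hsd3b1 and Akr1c18) at 2591 to 5940, 2837 to 5265 and 5418 to 7672. Cyp11a1 and Star make up most of the theca sum. The theca gene Cyp17a1, named after its values were seen, was at 697.5, 685.4 and 282.9 FPKM in HBOT. It was at 12.3 to 511.4 FPKM in CTX and at 119.0, 62.7 and 29.0 in NC. Its log2 fold change in HBOT against NC was 3.07 (SE 1.22, limma adjusted p = 0.395), and 2.86 without HBOT replicate 2. Of the 6 theca genes 2 were higher and 4 lower in that comparison. The endothelial genes (Egfl7 and Cdh5) were at 89.5 to 111.7, 100.9 to 123.5 and 98.8 to 110.0 FPKM in HBOT, CTX and NC, the macrophage genes (C1qa and C1qc) at 113.9 to 179.2, 116.9 to 159.0 and 91.4 to 101.2, and the smooth muscle genes (Acta2 and Tagln) at 381.1 to 541.9, 322.3 to 403.5 and 306.1 to 406.5. The erythroid genes (Hba-a1 and Hbb-bs) were at 316.9 to 734.8, 387.1 to 817.0 and 62.9 to 207.1 FPKM in HBOT, CTX and NC, and the adipocyte genes (Plin1 and Fabp4) at 14.6 to 22.0, 9.10 to 48.3 and 10.1 to 16.5. Oocyte, erythroid and macrophage sums separated both treated groups from NC, as Per2 did, and their part in its level was not tested. By gene, CTX and NC did not overlap for 7 of 10 oocyte, 5 of 5 tested erythroid and 5 of 6 macrophage genes. HBOT and NC did not overlap for 10, 4 and 3 of them, the last being C1qa, C1qb and C1qc. Over all tested genes these shares were 21% and 20.5%. The macrophage gene Cd68 overlapped in both comparisons.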

How the data were processed

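Polyadenylated RNA of mouse ovary was sequenced paired-end from 9 libraries, 3 each labelled HBOT, CTX and NC, per the labels' protocols and design text. The build GRCm39 and the read trimmer fastp (0.23.4) are named in the submitters' processing notes. Which aligner, counter and annotation were used is not stated there. FPKM values were deposited by the authors in 1 column per library, and 0 columns stayed unmatched.

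Values were taken as log2(FPKM + 1). The 13338 genes that reached 1 FPKM in 3 or more libraries entered a joint fit of the 9 libraries by limma 3.58.1 under R 4.3.3 (group means, eBayes with trend), with Benjamini-Hochberg adjustment over all of them. The fit was tested on simulated data: of 100 genes with an added log2 fold change of 1, it recovered 66% in CTX against NC, 67% in HBOT against CTX and 70% in HBOT against NC, with 13, 15 and 10 false calls among 13138 unchanged genes. The changed genes were drawn from those with a mean log2(FPKM + 1) above 3, with noise independent between genes. Arntl, Per2 and Npas2 lie below that level, and Dbp and Nr1d1 vary more than most genes. These shares therefore do not give the recovery of the clock genes. Correlations used exact permutations of the libraries (numpy 2.4.6). Figures were drawn with matplotlib 3.10.9.

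The 10 genes and all lists were chosen with earlier results of these data known. The text names every clock gene, up to 4 other clock genes per comparison with the smallest p and groups that do not overlap, the 2 most abundant genes of each further list, and the 5 genes most like Arntl and Dbp, of which 1 is not reported here. The alternatives tried were TPM, median-of-ratios and quantile scaling, an added 0.1 in place of 1, a minimum of 5 FPKM or none, 2 groups only, a replicate block, library weights, each library left out, and HBOT replicate 2 and CTX replicate 1 left out together.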

Additional observations from a re-analysis of the deposited data

How the results depend on the processing

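Of 30 fold changes (10 clock genes in 3 comparisons) under up to 19 alternatives (567 values, as Npas2 is not among genes with 5 FPKM), 23 kept their sign in every one run, and 0 clock genes passed in each comparison except with library weights, where Per2 in CTX against NC did (1 gene, 0.91, limma adjusted p = 0.0497, over all settings 0.0497 to 0.620). Over all tested genes the count of 0 became 31 in CTX against NC with 2 groups only. With library weights it was 123 in CTX against NC, 5 in HBOT against CTX and 181 in HBOT against NC. Without a filter it was 1 in both HBOT comparisons. Without HBOT replicate 2 and CTX replicate 1 it was 16 in CTX against NC and 2 in HBOT against CTX. With each library left out it ran from 0 to 9 in CTX against NC (8 without HBOT replicate 2 and 9 without HBOT replicate 3), 0 to 1 in HBOT against CTX and 0 to 3 in HBOT against NC (3 without HBOT replicate 3). The sign of HBOT against CTX turned for Arntl (-0.14 without HBOT replicate 2, -0.13 with library weights, -0.19 without both libraries), Per1 (-0.23, -0.13 and -0.23) and Clock (-0.012 with weights, -0.034 without both). In HBOT against NC it turned for Per1 (-0.10, -0.076 with weights and -0.10), Per3 (0.20, 0.26 and 0.20) and Tef (0.19, 0.23 and 0.19), and in CTX against NC for Per1 without NC replicate 3 (-0.080). The cause was not tested. With each library left out, HBOT against CTX ran from -0.14 to 0.29 for Arntl, 0.011 to 0.16 for Clock and -0.23 to 0.35 for Per1, HBOT against NC from -0.10 to 0.49 for Per1, -0.53 to 0.20 for Per3 and -0.52 to 0.19 for Tef, and CTX against NC from -0.080 to 0.39 for Per1. The 4 pairs of correlated genes became 12 with median-of-ratios scaling, and 2 to 5 with each library left out, and the cause was not tested. For deviations from the group means 20 pairs passed, where permutation p-values tend to be too small because centring ties the values of a group.

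Deviations of libraries with the same replicate number correlated from -0.287 to 0.156. These values are a description, and whether the numbers stand for shared handling was not tested. With the replicate number as a block, 0 clock genes and 0 of all genes passed in each comparison. FPKM gives no depth, so counting error is unknown, also for Npas2, the lowest clock gene.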
